A study of Mus musculus with 4 samples.

Results

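The genes described here are 9 members of the pathway that makes and degrades heme, chosen by symbol: Alas1, Alad, Uros, Urod, Cpox, Ppox, Fech, Hmox1 and Blvrb. All 9 were found among the 32285 mouse genes counted, and all 9 passed the filter on low counts in every comparison. The data are single-nucleus RNA-seq of whole livers from male mice, which were fed DDC for 4 weeks starting at 10 to 11 weeks of age. CKO mice (2 libraries) carried a deletion of Rbpj, the DNA-binding partner of Notch, that was specific to hepatic progenitor cells, and WT mice (2 libraries) were their wild-type counterparts. Both genotypes received DDC and no library came from an undamaged liver, so the effect of the diet itself cannot be measured in these data. The labels do not name the Cre driver and do not say whether the 2 libraries of a genotype came from separate animals, so the p-values measure the spread between libraries, which may be technical.

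Heme is built from glycine and succinyl-CoA through a chain of enzymes that starts in the mitochondrion, passes through the cytosol and ends in the mitochondrion again. ALAS1 makes aminolevulinic acid and is the rate-limiting step in liver, where free heme represses it. ALAD, UROS and UROD work in the cytosol, CPOX and PPOX act at the mitochondrial membranes, and ferrochelatase (FECH) inserts iron to finish the molecule. DDC gives rise to an N-alkylated porphyrin that inhibits ferrochelatase, so protoporphyrin accumulates and plugs bile ducts. Heme oxygenase 1 (HMOX1), abundant in macrophages that clear red cells and inducible by heme and oxidative stress, opens the ring to biliverdin. Biliverdin is reduced to bilirubin, in adult liver mainly by BLVRA. BLVRB is a reductase of biliverdin and flavins.

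The libraries held 38003108 and 12261329 unique molecular identifiers (UMIs, each a counted RNA molecule) in CKO, and 45620141 and 13914845 in WT. After removal of doublets 39017 barcodes remained, of which 18269 fell into clusters named by marker genes and 20748 stayed unnamed. The 9 members and the 4 gene lists below were left out of the clustering, so that the class names do not rest on them. Hepatocyte-like nuclei numbered 932 and 1668 in CKO and 1773 and 1136 in WT, and those of each library lay mostly in a cluster of its own. These clusters were named from 4 or 5 of 12 hepatocyte markers raised over the barcodes with the fewest UMIs. They were led by nuclear noncoding RNAs such as Neat1 and Gm20528. Most macrophage-like nuclei of the first CKO library also formed a cluster of their own. Macrophage-like nuclei numbered 2254 and 169 in CKO and 2698 and 419 in WT, and cholangiocyte-like nuclei 498 and 32 in CKO and 1455 and 302 in WT. The second CKO library therefore gave only 64719 UMIs for cholangiocyte-like nuclei. Libraries shared 19 to 114 cell barcodes with each other.

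Much of the RNA in each droplet was estimated to be free RNA. The 12 hepatocyte markers summed to 30969 to 39610 CPM in CKO and 25590 to 25843 CPM in WT macrophage-like nuclei. Hepatocyte-like nuclei had 27722 to 29225 CPM in CKO and 23771 to 26789 CPM in WT. The unnamed barcodes had more, 39370 to 52213 CPM in CKO and 35587 to 38913 CPM in WT. These sums therefore do not set hepatocyte-like nuclei apart, and what the unnamed barcodes contain was not tested. The profile of the unnamed barcodes of each library, scaled to secreted hepatocyte transcripts or, in hepatocyte-like nuclei, to mitochondrial transcripts, accounted for 27.8% to 38.5% of the UMIs in hepatocyte-like nuclei. It accounted for 66.4% to 79.2% in macrophage-like nuclei and 51.6% to 72.8% in cholangiocyte-like nuclei. Each member is therefore given as its UMIs per 1000000 UMIs of its class (CPM) and beside the number of UMIs that free RNA alone would give. A ratio near 1 in hepatocyte-like nuclei does not show that a gene is silent, because hepatocyte transcripts make up much of the free RNA itself.

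The gene Rbpj was counted at 54.4 and 34.1 CPM in CKO and 76.5 and 42.8 CPM in WT over all kept barcodes. In cholangiocyte-like nuclei Rbpj stood at 73.0 and 30.9 CPM in CKO (108 and 2 UMIs) and 81.4 and 65.4 CPM in WT. These counts do not test the deletion, since reads of a 3' assay can lie outside a deleted exon. The added sequence eGFPcre gave 5 and 4 UMIs in CKO and 47 and 0 in WT over all kept barcodes.

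Where the members lie was taken from the annotation (mouse build GRCm38, which is mm10). Alas1 is at chr9:106233455-106248654 on the minus strand, and Hmox1 at chr8:75093621-75100589 and Blvrb at chr7:27447978-27466144 on the plus strand. Alas1, Uros, Cpox and Ppox each overlap a gene on the opposite strand (4930500F10Rik, Bccip, Gpr15 and B4galt3), and whether the counting used strand is not given in the sources used here. Alas1 codes for the rate-limiting step, and its start region holds the palindrome bound by NRF-1, a factor through which the coactivator PGC-1α is known to act on Alas1. The stretch is shown for that reason, with the palindrome in capitals and 10 bases on either side, from RefSeq on GRCm38.p6, minus strand, chr9:106247906-106247935.
Alas1: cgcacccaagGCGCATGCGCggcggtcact
The capitals lie 60 bases before the start of one annotated transcript and inside an exon of another of its 13 annotated transcripts, Alas1-207. The letters in capitals, which read the same on both strands, occurred in 0.971% of 32851 start windows of 250 bases before to 50 bases after a gene's start. The search covered 11 windows of 7 members, without Fech and Hmox1, and 2 windows had it, both of Alas1. The core of the antioxidant response element, TGACNNNGC on either strand, occurred in 12.4% of all windows and in 0 of the 11, none of which is of Hmox1. A match is a description of these letters and not evidence of binding.

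In hepatocyte-like nuclei all 9 members exceeded the free RNA estimate in all 4 libraries, with the 95% exact Poisson interval of the count above it. These intervals cover counting error only. The count was 7 of 9 with the estimate scaled to secreted hepatocyte transcripts in this class too, which put free RNA at 38.1% to 44.6% of its UMIs. Urod then lay at 0.980 to 1.12 times the estimate with no interval above it, and the interval of Hmox1 reached below it in the second CKO library. In macrophage-like nuclei this held for 2 of 9 members, Hmox1 and Blvrb. With the other scale it held for the same 2. In cholangiocyte-like nuclei it held for 0 of 9 in all 4 libraries, where the second CKO library had only 0 to 13 UMIs per member, and for Uros, Ppox and Fech in the other 3 libraries. These sums were smaller than those of hepatocyte-like nuclei (4303157 to 10583165 UMIs), so the counts of members are not compared between the classes. The share of all genes that exceed the estimate by this rule was not computed for any class. In hepatocyte-like nuclei free RNA was put at only 27.8% to 38.5% of the UMIs, so the UMIs of that class as a whole also exceed it.

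Alas1, the rate-limiting enzyme, was counted at 625 and 687 CPM in CKO hepatocyte-like nuclei and 856 and 1164 CPM in WT ones. That was 10.2 and 8.90 times the free RNA estimate in CKO and 6.98 and 5.83 times in WT. Every library thus showed Alas1 several-fold above free RNA in these nuclei, with CKO below WT in CPM and above WT in the ratio. In macrophage-like nuclei Alas1 stood at 149 and 168 CPM in CKO and 313 and 423 CPM in WT, which was 0.967 to 1.06 times the free RNA estimate. Cholangiocyte-like nuclei gave 123 and 200.9 CPM in CKO and 224 and 321 CPM in WT, or 0.918 to 1.38 times that estimate. The Alas1 counts of both classes were therefore at the level of free RNA.

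The share of nuclei with an Alas1 UMI showed the same split. With every nucleus thinned to 1000 UMIs, which left out none, 39.5% and 47.0% of CKO and 51.9% and 64.7% of WT hepatocyte-like nuclei had an Alas1 UMI. Unthinned, at median depths of 4535 and 3002.5 UMIs in CKO and 5346 and 3204 in WT, the shares were 82.0% and 82.6% in CKO and 92.8% and 89.5% in WT. Macrophage-like nuclei, whose Alas1 count is at the free RNA level, gave thinned shares of 13.6% and 13.0% in CKO and 26.7% and 35.8% in WT (unthinned 28.9% and 27.2% in CKO, 53.4% and 56.8% in WT, median depths 1761 to 2364 UMIs).

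**Figure D1:**
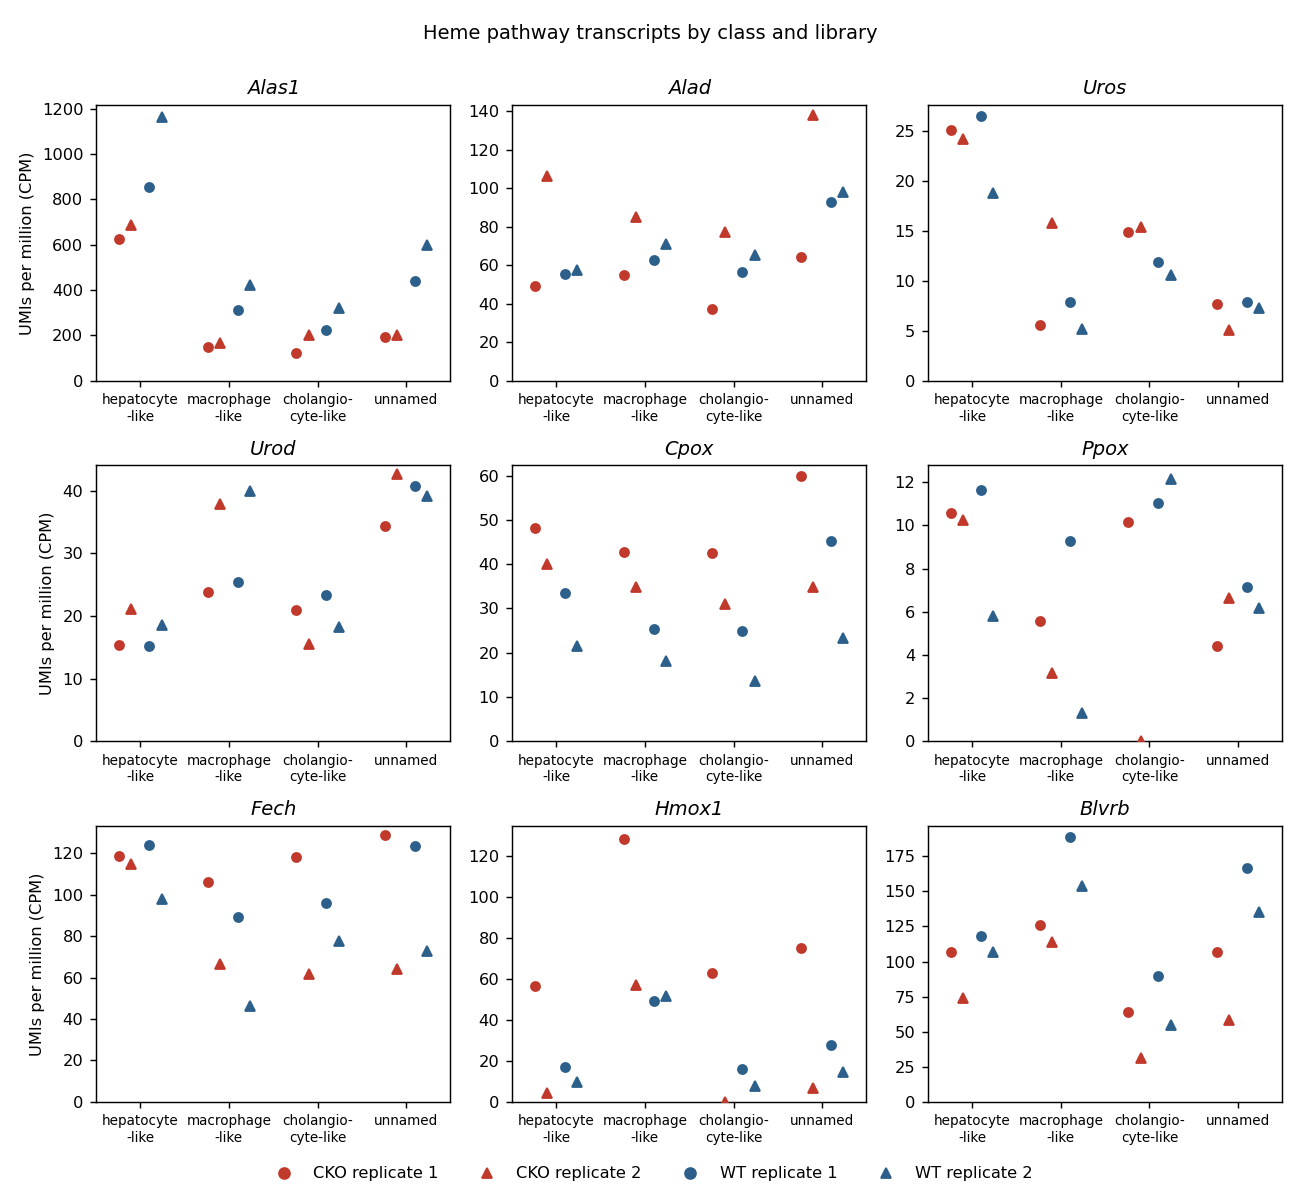
Level of each of the 9 members (CPM, linear axes from 0) in hepatocyte-like, macrophage-like and cholangiocyte-like nuclei and in the unnamed barcodes, with 1 point per library (CKO red, WT blue, circles replicate 1, triangles replicate 2). Alas1 lies at 625 to 1164 CPM in hepatocyte-like nuclei and at 423 CPM or less in the other named classes drawn.

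The cytosolic steps differed among themselves. Uros, which closes the tetrapyrrole ring, was at 25.1 and 24.2 CPM in CKO and 26.6 and 18.8 CPM in WT hepatocyte-like nuclei, 7.75 to 12.4 times the free RNA estimate. These ratios rest on 81 to 281 UMIs per library. Alad, which joins the first precursors, had 49.4 and 106 CPM in CKO and 55.7 and 57.4 CPM in WT, at 1.75 to 2.40 times free RNA. The second CKO library stood above the other 3 for Alad here. Urod, which trims the ring's side chains, had 15.3 and 21.1 CPM in CKO and 15.2 and 18.6 CPM in WT, and at 1.28 to 1.42 times free RNA it lay closest to that estimate and within counting error of it under the other scale.

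The last steps, at the mitochondrion, were all above free RNA in hepatocyte-like nuclei under both scales. Fech, the target of the DDC product, was even across libraries at 119 and 115 CPM in CKO and 124 and 97.8 CPM in WT, 2.89 to 4.65 times the free RNA estimate. Ppox, which makes protoporphyrin, had 10.6 and 10.3 CPM in CKO and 11.6 and 5.81 CPM in WT from 25 to 123 UMIs per library. Cpox, the oxidase before it, had 48.2 and 40.0 CPM in CKO and 33.5 and 21.6 CPM in WT, at 2.52 to 2.98 times free RNA. For Cpox both CKO libraries lay above both WT libraries.

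Cholangiocyte-like nuclei held Uros, Ppox and Fech above free RNA in 3 of 4 libraries. Fech had 118 and 61.8 CPM in CKO and 95.9 and 77.5 CPM in WT, 1.33 to 1.82 times the estimate, and the interval of the second CKO library, from 4 UMIs, reached below it. Uros had 14.9 and 15.5 CPM in CKO (22 UMIs and 1 UMI) and 11.9 and 10.6 CPM in WT (55 and 7 UMIs), 2.501 to 4.19 times the estimate. The 4.19 came from the 1 UMI of the second CKO library, with an interval of 0.106 to 23.3. Ppox was at 10.1 CPM and at 0 of 64719 UMIs in CKO and at 11.0 and 12.2 CPM in WT. A count of 0 allows up to 46.4 CPM there.

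Heme breakdown followed another pattern. Hmox1 had 128 and 56.9 CPM in CKO and 49.4 and 51.6 CPM in WT macrophage-like nuclei (666 and 18 UMIs in CKO, 330 and 40 in WT). Against free RNA that was 2.23 and 10.9 times in CKO and 2.70 and 4.79 times in WT. In hepatocyte-like nuclei Hmox1 stood at 56.4 and 4.25 CPM in CKO and 17.0 and 9.53 CPM in WT, 1.66 to 2.35 times free RNA. The 2 CKO libraries lay on either side of both WT libraries in hepatocyte-like nuclei. Cholangiocyte-like nuclei gave 62.9 CPM and 0 in CKO, where a count of 0 allows up to 46.4 CPM, and 16.0 and 7.60 CPM in WT. The 95% interval exceeded the free RNA estimate only in the first CKO library, at 1.44 times.

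Blvrb, a reductase of biliverdin and flavins, had 126 and 114 CPM in CKO and 189 and 154 CPM in WT macrophage-like nuclei, 1.55 to 2.48 times free RNA. Hepatocyte-like nuclei held it at 107 and 74.2 CPM in CKO and 118 and 107 CPM in WT, 2.37 to 3.32 times free RNA. In cholangiocyte-like nuclei it lay at 0.692 to 1.05 times free RNA, so no Blvrb beyond free RNA was detectable there at this depth.

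**Figure D2:**
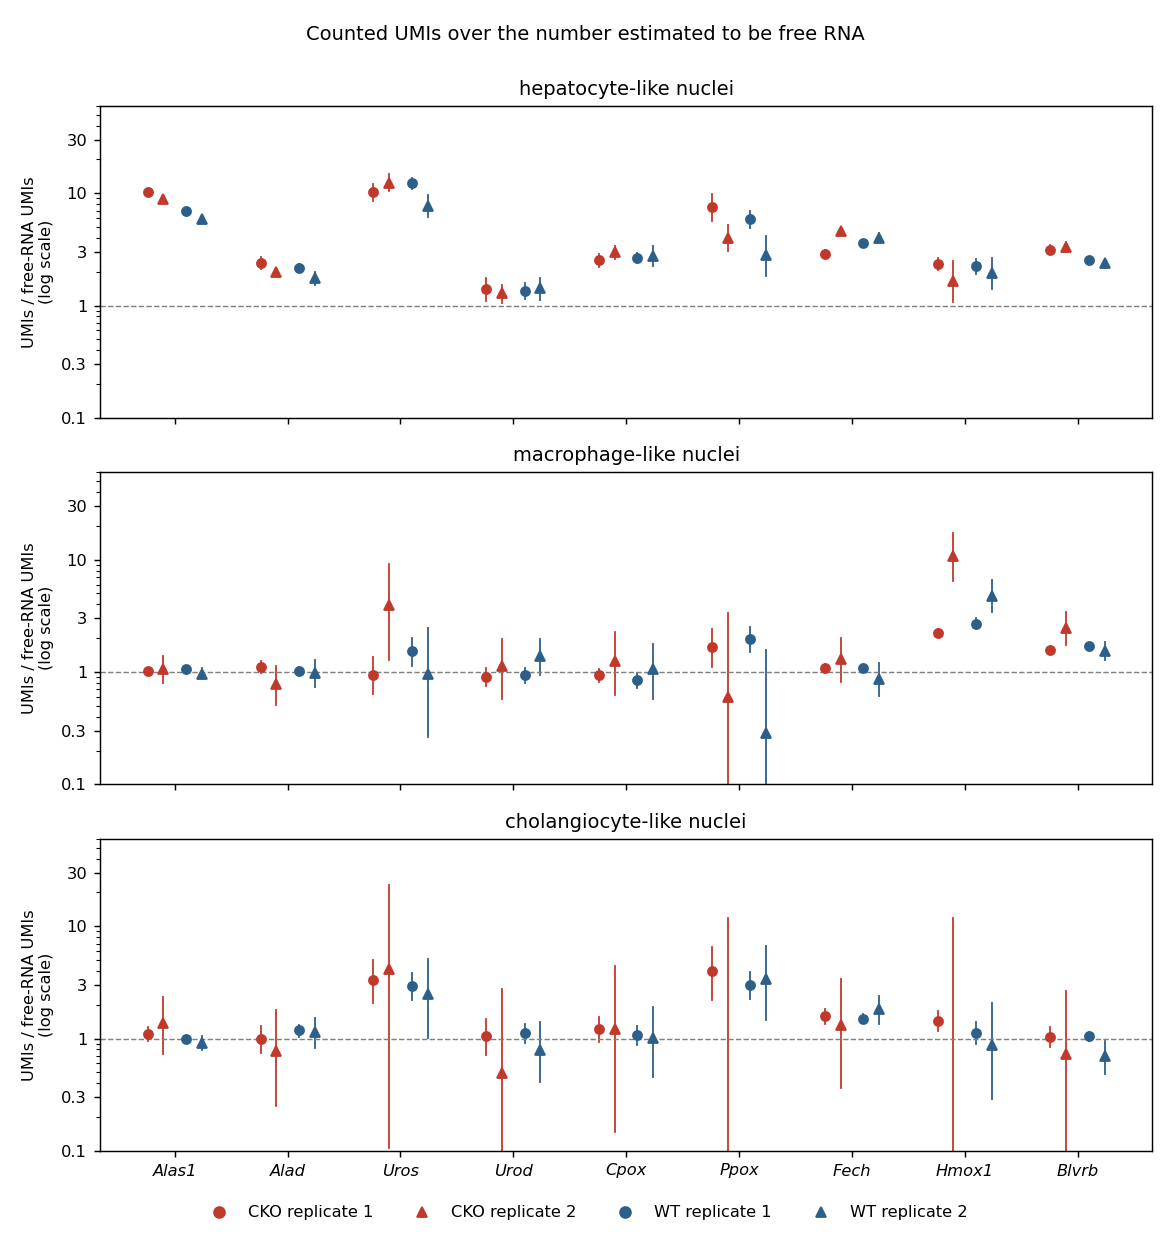
UMIs counted for each member divided by the UMIs that free RNA alone would give (log axis), in hepatocyte-like, macrophage-like and cholangiocyte-like nuclei, with 1 point per library and bars for the 95% exact Poisson interval of the count. Counts of 0 cannot be drawn on this axis and intervals below 0.1 are cut off. With the scale drawn, all 36 points in hepatocyte-like nuclei lie above 1 (35 with the other scale, the exception being Urod in the first WT library), and in macrophage-like nuclei only Hmox1 and Blvrb have all 4 bars above 1.

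The classes were compared with edgeR's quasi-likelihood test on summed counts with the library as a block, and Benjamini-Hochberg adjustment over all genes tested. Of 13316 genes, 62.6% were called between hepatocyte-like and macrophage-like nuclei, 30.2% higher and 32.4% lower in hepatocyte-like ones. With so many genes called, a called member is no exception among genes. Alas1 was higher in hepatocyte-like nuclei by 1.59 on the log2 scale (SE 0.13, adjusted p = 1.47e-07) and Uros by 1.69 (SE 0.21, adjusted p = 9.76e-06, and 0.0884 with free RNA subtracted). Fech was higher by 0.39 (SE 0.15, adjusted p = 0.0370), and that call was lost without the second CKO library (adjusted p = 0.0748) and without either WT library (0.117 without the first and 0.149 without the second), with no library block (0.148) and with doublets kept (0.0634). Hmox1 was lower by 1.90 (log2 change -1.90, SE 0.26, adjusted p = 1.89e-05) and Blvrb was lower as well (log2 change -0.64, SE 0.12, adjusted p = 0.000274). Urod was called lower in hepatocyte-like nuclei (log2 change -0.93, SE 0.16, adjusted p = 0.000168), but its level in macrophage-like nuclei was at the free RNA estimate, and with free RNA subtracted the log2 change was 1.51 (adjusted p = 0.504). Alad, Cpox and Ppox were not called. With free RNA subtracted, Alad (log2 change 3.03, adjusted p = 0.0348) and Cpox (4.84, adjusted p = 0.0295) were called higher. Ppox was called higher with RLE scaling (0.63, adjusted p = 0.0403) and Alad lower without the second CKO library (-0.33, adjusted p = 0.0469).

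Against cholangiocyte-like nuclei, 50.5% of 13109 genes were called, 25.7% higher and 24.9% lower in hepatocyte-like ones. All 5 called members were higher in hepatocyte-like nuclei. Alas1 was higher by 2.08 on the log2 scale (SE 0.14, adjusted p = 3.59e-35), Uros by 1.04 (SE 0.22, adjusted p = 1.73e-05, and 0.0643 both without the first WT library and with free RNA subtracted) and Blvrb by 0.70 (SE 0.14, adjusted p = 7.59e-06). Cpox (log2 change 0.42, SE 0.18, adjusted p = 0.0459) and Fech (log2 change 0.32, SE 0.14, adjusted p = 0.0436) were close to the threshold, and both lost the call without the first WT library (0.397 and 0.430) and without the second (0.0917 and 0.0928). DESeq2 (0.179 and 0.170) and the fit with no library block (0.346 and 0.161) did not call them either. Fech also lost the call with at least 1000 genes per barcode (0.127), with doublets kept (0.0606) and with free RNA subtracted (0.05002). Alad was called higher with free RNA subtracted (log2 change 2.15, adjusted p = 0.0186). Hmox1 was not called (log2 change 0.04, SE 0.20), with a 0 in the second CKO library.

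Between macrophage-like and cholangiocyte-like nuclei 48.7% of 10062 genes were called, 22.8% higher and 25.8% lower in macrophage-like ones. Of all genes, 2298 were higher and 2600 lower in macrophage-like nuclei. The split became 2785 and 2364 with RLE scaling, 1923 and 1794 with DESeq2, and 3550 and 2130 with principal components centred per library. It also reversed with no filter, at least 1000 genes per barcode, doublets kept and resolution 2. It kept its direction with no library block (1185 and 1737) and with free RNA subtracted (1286 and 1298). The main log2 changes of Urod (0.33), Cpox (0.09) and Blvrb (1.17) lay below every alternative (lowest 0.36, 0.13 and 1.20). The changes of the other members lay within the range of theirs. Hmox1 was higher in macrophage-like nuclei by 1.47 on the log2 scale (SE 0.18, adjusted p = 5.61e-08) and Blvrb by 1.17 (SE 0.13, adjusted p = 1.76e-08). Uros was lower (log2 change -0.82, SE 0.27, adjusted p = 0.0135), and lost the call without the first WT library (adjusted p = 0.05005) and without the second (0.0734). It also lost it with DESeq2 (0.0854), no library block (0.0975), at least 1000 genes per barcode (0.0514), doublets kept (0.0517) and resolution 2 (0.0584). Alas1 was called higher by 0.42 (SE 0.12, adjusted p = 0.00412) although both classes held it at the free RNA level, and the adjusted p was 0.930 with free RNA subtracted, 0.451 with no library block and 0.0746 without the first WT library. Alad (log2 change 0.30, adjusted p = 0.0686) and Urod (0.33, adjusted p = 0.148) were not called, though 8 and 5 of 12 alternatives called them higher in macrophage-like nuclei. The Hmox1 call was lost without the library block (adjusted p = 0.0539).

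The macrophage-like nuclei were clustered again and named by markers of resident Kupffer cells, which clear aged red cells, and of monocyte-derived macrophages. Of 5540 nuclei, 1434 were Kupffer-like, 1565 monocyte-derived-like and 2541 (45.9%) raised too few markers for either name, among them a subcluster of 913 led by Marco and Cd163. Kupffer-like nuclei held Hmox1 at 174 and 129 CPM in CKO (226 and 10 UMIs) and 77.4 and 70.0 CPM in WT (152 and 15 UMIs). Monocyte-derived-like nuclei held 104 and 15.03 CPM in CKO (155 UMIs and 1 UMI) and 39.2 and 55.7 CPM in WT (78 and 15 UMIs). The other macrophage-like nuclei held 118 and 40.6 CPM in CKO and 36.8 and 34.3 CPM in WT. In each of the 4 libraries Hmox1 was thus higher in Kupffer-like nuclei than in either other set, 1 of the values resting on 1 UMI. Blvrb was at 136 and 193 CPM in CKO and 208 and 154 CPM in WT Kupffer-like nuclei, and at 140 and 150 CPM in CKO and 189 and 152 CPM in WT monocyte-derived-like ones. For Blvrb the libraries disagreed on the order. One of the Kupffer-like subclusters, of 136 nuclei, was led by cell division genes such as Top2a. These levels were not tested.

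**Figure D3:**
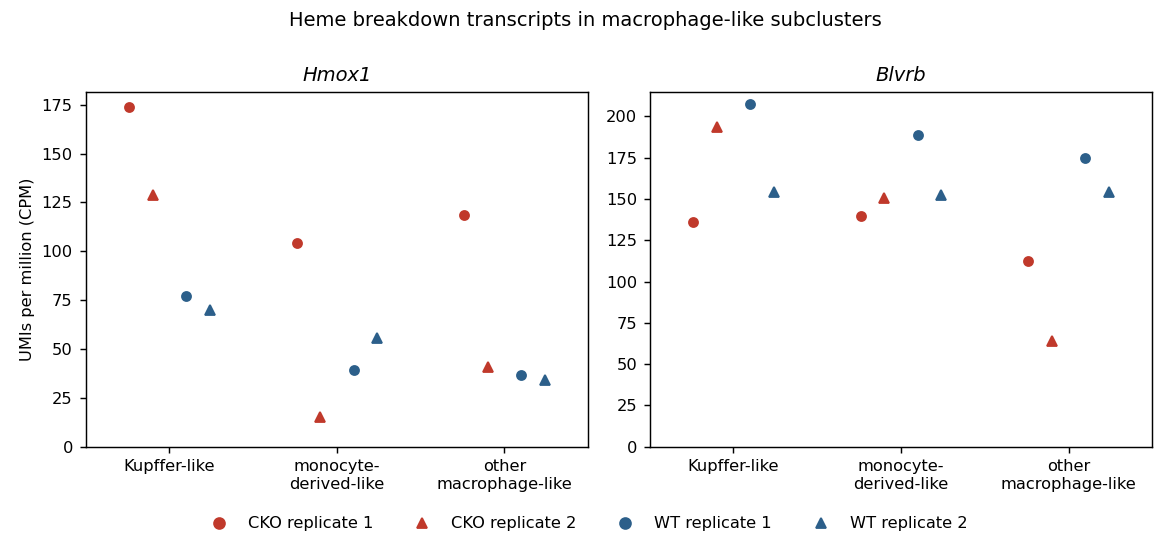
Hmox1 and Blvrb (CPM, axes from 0) in Kupffer-like, monocyte-derived-like and other macrophage-like nuclei, with 1 point per library (CKO red, WT blue). Hmox1 lies at 70.0 to 174 CPM in Kupffer-like nuclei and at 15.03 to 104 CPM in monocyte-derived-like nuclei.

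The deletion of Rbpj, compared with WT under the same diet, gave few calls in any class. Of 13385 genes in hepatocyte-like nuclei 0% were called (0 genes at adjusted p below 0.05 with edgeR, 2 with DESeq2, and 235 at an unadjusted p below 0.05). Of 12222 in macrophage-like nuclei 0% were called (0 with edgeR, 3 with DESeq2, 631 unadjusted), and of 10294 in cholangiocyte-like nuclei 0.204% were called (21 with edgeR, 0 with DESeq2), 0.117% higher and 0.0874% lower in CKO. Of the members 1 was called, Hmox1 in cholangiocyte-like nuclei. Members whose 2 CKO libraries lay above both WT libraries numbered 1 of 9 in hepatocyte-like nuclei, where 7.78% of all genes did so, 2 of 9 in macrophage-like nuclei (6.24%) and 2 of 9 in cholangiocyte-like nuclei (9.07%). The 2 in cholangiocyte-like nuclei were Uros and Cpox, with 1 and 2 UMIs in the second CKO library. Members with both CKO libraries below both WT libraries numbered 2 of 9 in each class, where 16.9%, 26.2% and 20.8% of all genes did so in that order. With 2 libraries per genotype the smallest p an exact permutation test allows is 0.333.

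Alas1 was lower in both CKO libraries than in both WT libraries in every class, without passing the test except in macrophage-like nuclei with no filter on low counts (log2 change -1.07, edgeR adjusted p = 0.04999). In hepatocyte-like nuclei it averaged 656 ± 44.2 CPM in CKO and 1010 ± 218 CPM in WT (SD, n = 2 each). The fitted log2 change was -0.56 (SE 0.34, edgeR adjusted p = 0.9997). Within replicate numbers the change was -0.45 for the first pair of libraries and -0.76 for the second. Net of the free RNA estimate, Alas1 stood at 563 and 610 CPM in CKO and 733 and 964 CPM in WT, again without overlap. Macrophage-like nuclei gave a log2 change of -1.08 (SE 0.32, edgeR adjusted p = 0.906) and in cholangiocyte-like nuclei -0.94 (SE 0.35, edgeR adjusted p = 0.533). In both classes the counts were at the free RNA level, and the unnamed barcodes that define that level held Alas1 at 193 and 200 CPM in CKO and 442 and 597 CPM in WT.

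Cpox lay the other way, with both CKO libraries above both WT libraries in all 3 classes. Its mean was 44.1 ± 5.81 CPM in CKO and 27.5 ± 8.37 CPM in WT hepatocyte-like nuclei (SD, n = 2 each), and the fitted change was 0.76 on the log2 scale (SE 0.24, edgeR adjusted p = 0.9997). Macrophage-like nuclei had 42.7 and 34.8 CPM in CKO and 25.5 and 18.1 CPM in WT, a log2 change of 1.03 (SE 0.26, edgeR adjusted p = 0.906), with counts at the free RNA level. Cholangiocyte-like nuclei had 42.6 and 30.9 CPM in CKO and 24.9 and 13.7 CPM in WT (log2 change 1.01, SE 0.34, edgeR adjusted p = 0.392). None of these passed the threshold over all genes. Over all kept barcodes Cpox also stood apart, at 53.4 and 37.0 CPM in CKO and 33.9 and 21.6 CPM in WT, where 3.42% of 16796 genes had both CKO libraries above both WT libraries and 19.7% had both below, as Alas1 and Blvrb did.

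Hmox1 differed widely between the 2 CKO libraries. Its called change in cholangiocyte-like nuclei was 2.10 on the log2 scale (SE 0.39, edgeR adjusted p = 0.0188) and rested on the first CKO library with 93 UMIs, since the second had 0. Without that library the fitted change was -7.65 (edgeR adjusted p = 0.644), a value set by the 0, and the call was also lost without the first WT library (log2 change 2.65, adjusted p = 0.2395) and without the second (1.84). It was also lost with DESeq2 (adjusted p = 0.99997), at least 1000 genes per barcode (0.192), doublets kept (0.534), resolution 2 (0.636) and centred components (0.756). Subtraction of free RNA gave no value for Hmox1 in this class. In hepatocyte-like nuclei the change was 1.20 (SE 1.09, edgeR adjusted p = 0.9997), and -1.49 without the first CKO library. In macrophage-like nuclei, where Hmox1 is well above free RNA, it was 1.20 (SE 0.32, edgeR adjusted p = 0.906). That change was 0.51 without the first CKO library and 1.52 without the second, where it passed (edgeR adjusted p = 0.00326). It also passed with no filter on low counts (1.22, edgeR adjusted p = 0.00416) and with at least 1000 genes per barcode (1.34, edgeR adjusted p = 0.00421). Net of free RNA, Hmox1 in macrophage-like nuclei was 70.8 and 51.7 CPM in CKO and 31.1 and 40.8 CPM in WT.

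Red cell transcripts were also highest in the first CKO library. The summed level of 7 erythroid markers (globins, Slc4a1, Epb42 and Klf1) in macrophage-like nuclei was 1223 and 231 CPM in CKO and 261 and 94.2 CPM in WT, with 1 to 3 of the 7 at 0. It was 530 and 119 CPM in CKO and 109 and 44.2 CPM in WT hepatocyte-like nuclei, with 0 to 2 at 0. In cholangiocyte-like nuclei it was 915 and 77.3 CPM in CKO and 186 and 97.3 CPM in WT, with 1 to 5 at 0. The unnamed barcodes held Hmox1 at 75.2 and 6.62 CPM in CKO and 27.5 and 14.7 CPM in WT. The part of red cell RNA and of free RNA in the Hmox1 change was not tested.

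**Figure D4:**
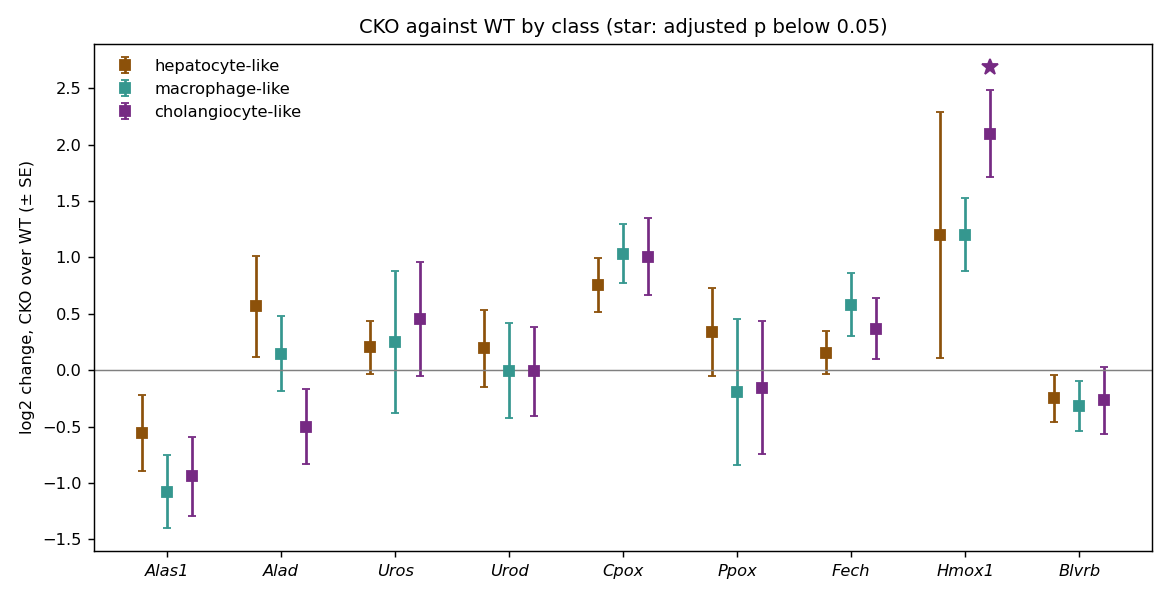
Log2 change of CKO over WT with its standard error for each member in hepatocyte-like, macrophage-like and cholangiocyte-like nuclei (edgeR, 2 libraries per genotype). Hmox1 in cholangiocyte-like nuclei, at 2.10, is the only point with an adjusted p below 0.05, while Alas1 lies below 0 and Cpox above 0 in all 3 classes. The Alas1 and Cpox counts of macrophage-like and cholangiocyte-like nuclei were at the free RNA level. The Hmox1 count of cholangiocyte-like nuclei exceeded free RNA beyond counting error only in the first CKO library, at 1.44 times.

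Fech, whose enzyme DDC disables, averaged 117 ± 2.87 CPM in CKO and 111 ± 18.4 CPM in WT hepatocyte-like nuclei (SD, n = 2 each). Its log2 change there was 0.16 (SE 0.19, edgeR adjusted p = 0.9997). It was 0.58 (SE 0.28, edgeR adjusted p = 0.996) in macrophage-like and 0.37 (SE 0.27) in cholangiocyte-like nuclei, and was not called in either. Blvrb averaged 90.5 ± 23.1 CPM in CKO and 113 ± 7.93 CPM in WT hepatocyte-like nuclei (SD, n = 2 each). Its log2 change lay between -0.32 and -0.25 in the 3 classes and was not called, though both CKO libraries were below both WT libraries in hepatocyte-like and macrophage-like nuclei. Alad, Uros, Urod and Ppox had log2 changes between -0.50 and 0.57, none of them called. The change of each member was also compared between classes in 1 fit with an interaction term, a test chosen after the data were seen. It called 0.0342% of 14619 genes between hepatocyte-like and macrophage-like nuclei, 0.234% of 14529 between hepatocyte-like and cholangiocyte-like nuclei and 0.132% of 11363 between macrophage-like and cholangiocyte-like nuclei. No member was among them (edgeR, smallest adjusted p of a member 0.964), and the class differences of the members' changes did not pass the test.

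Other enzymes of heme synthesis and of breakdown to conjugated bilirubin were a list of 4 genes, Alas2, Hmox2, Blvra and Ugt1a1. With edgeR, 0 of 4 were called between CKO and WT in each of the 3 classes. Between classes, Blvra, the main biliverdin reductase of adult liver, was lower in hepatocyte-like than in macrophage-like nuclei (log2 change -1.86). The constitutive heme oxygenase Hmox2 was lower as well (log2 change -0.95), so that 2 of 4 were called lower and 0 higher. Of all genes tested 32.4% were called lower and 30.2% higher there. Blvra had 40.4 and 22.1 CPM in CKO and 49.1 and 37.4 CPM in WT macrophage-like nuclei, 2.70 to 3.98 times free RNA. Alas2, the isoenzyme that red cell precursors use, had 6.38 and 44.1 CPM in CKO and 23.7 and 24.9 CPM in WT hepatocyte-like nuclei, 1.73 to 4.63 times the free RNA estimate. The first CKO library, which held the most red cell RNA, was the lowest of the 4 for Alas2. Which cells the Alas2 counts came from was not tested. The smallest genotype p in this list belonged to Blvra in hepatocyte-like nuclei (log2 change -0.35), Alas2 in macrophage-like nuclei (0.69) and Blvra in cholangiocyte-like nuclei (0.85, edgeR adjusted p = 0.874).

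Regulators of Alas1 and Hmox1 were a list of 13 genes, and 0 of 13 were called between CKO and WT in any of the 3 classes. Between classes, 7 of 13 were higher in hepatocyte-like than in macrophage-like nuclei and 1 was lower, beside 30.2% and 32.4% of all genes tested. Against cholangiocyte-like nuclei 9 of 13 were higher and 0 lower, beside 25.7% and 24.9% of all genes tested. The nuclear receptors Nr1i2 (PXR, log2 change 2.74) and Nr1i3 (CAR, 1.96), which induce Alas1 when drugs are handled, the coactivator gene Ppargc1a (2.28) and the transcription factor gene Foxo1 (1.83) were among the 7. The median log2 change of the list was 0.44 against macrophage-like and 1.16 against cholangiocyte-like nuclei, beside -0.01 and -0.00048 over all genes tested.

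In the genotype comparison, Ppargc1a had the smallest p of the list in hepatocyte-like nuclei. It was at 54.2 and 54.9 CPM in CKO and 131 and 131 CPM in WT, 5.54 to 14.0 times the free RNA estimate. The 2 libraries of each genotype agreed closely and did not overlap with the other genotype. Of all genes tested there, 16.9% had both CKO libraries below both WT libraries and 7.78% had both above. The fitted log2 change of -1.19 (SE 0.20) had an edgeR adjusted p of 0.9997 over 13385 genes. PGC-1α, its product, is known from mouse liver to raise Alas1 transcription in fasting. A link between the levels of Ppargc1a and Alas1 was not tested here. Foxo1 had 223 and 275 CPM in CKO and 295 and 386 CPM in WT (log2 change -0.38, edgeR adjusted p = 0.9997). Nr1d1, which codes for a repressor of the circadian clock, had 1.99 and 38.9 CPM in CKO and 15.3 and 11.2 CPM in WT, so the CKO libraries lay on either side of WT. The labels used here give no hour of tissue collection.

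**Figure D5:**
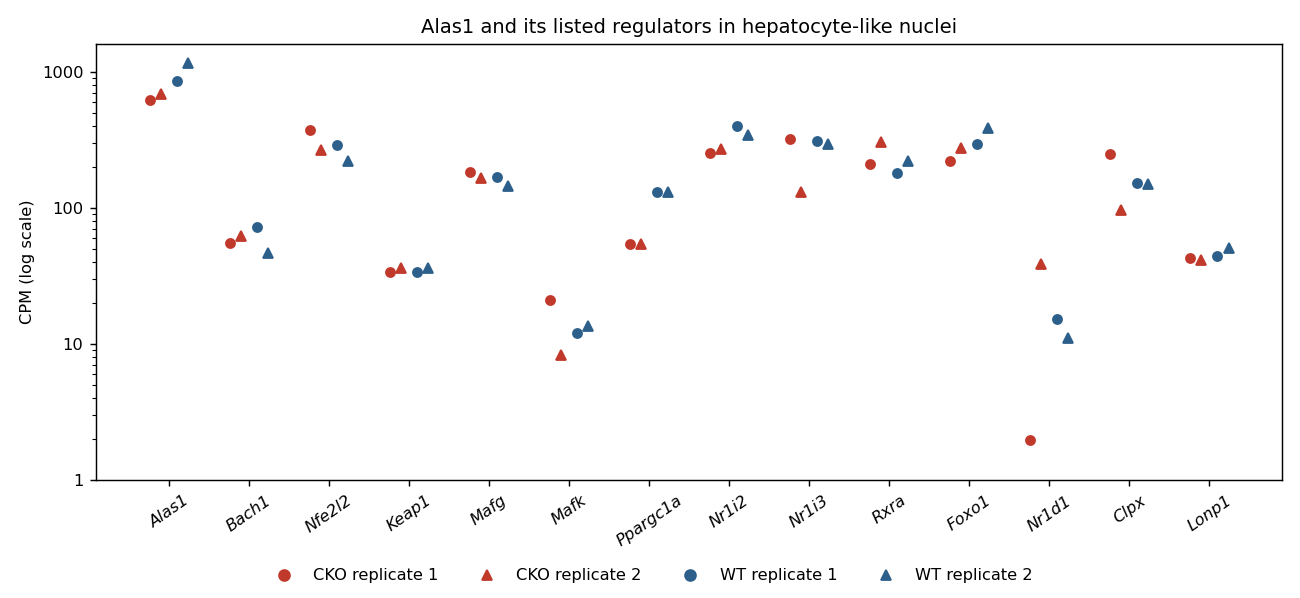
Alas1 and 13 genes known as regulators of Alas1 or Hmox1 in hepatocyte-like nuclei (CPM, log axis), with 1 point per library (CKO red, WT blue). Ppargc1a lies at 54.2 and 54.9 CPM in CKO and at 131 CPM in both WT libraries, and Nr1d1 spreads from 1.99 to 38.9 CPM over the 2 CKO libraries.

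Listed genes for heme and precursor transport (13 genes) and for hemoprotein clearance and iron (16 genes) also had 0 called between CKO and WT in each class. Of the transport list 13, 13 and 11 genes passed the filter in hepatocyte-like, macrophage-like and cholangiocyte-like nuclei, and of the clearance and iron list 15, 16 and 15. In the transport list the smallest genotype p belonged to Pgrmc1, a heme-binding membrane protein gene, in hepatocyte-like nuclei (log2 change 0.43), to Slc46a1, a heme and folate importer gene, in macrophage-like nuclei (1.13), and to Hebp1, for a heme-binding protein, in cholangiocyte-like nuclei (0.56). In the clearance and iron list it belonged to Lrp1, which encodes the receptor for hemopexin-bound heme, in hepatocyte-like nuclei (log2 change 0.62), to Tfr2 in macrophage-like nuclei (0.80) and to the iron exporter gene Slc40a1 in cholangiocyte-like nuclei (0.86, edgeR adjusted p = 0.369). Among regulators the smallest p in macrophage-like nuclei was that of Rxra (log2 change 0.49) and in cholangiocyte-like nuclei that of Nr1d1 (-1.75).

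The class comparisons of all 4 lists are described by genes chosen after their values were seen. They are given for the main fit only and were not checked with free RNA subtracted. Subtraction gave 4108 called genes in place of 8339 between hepatocyte-like and macrophage-like nuclei. Of the 16 clearance and iron genes, 10 were lower and 1 higher in hepatocyte-like than in macrophage-like nuclei, beside 32.4% and 30.2% of all genes tested. The list median was -0.92, beside -0.01 over all genes. Cd163, the scavenger receptor for haptoglobin-bound hemoglobin, was at 71.0 and 101 CPM in CKO and 85.2 and 101 CPM in WT macrophage-like nuclei, against 9.56 and 4.78 CPM in CKO and 4.82 and 3.02 CPM in WT hepatocyte-like nuclei (log2 change -4.09 for hepatocyte-like over macrophage-like). Slc40a1 stood at 554 and 455 CPM in CKO and 693 and 497 CPM in WT macrophage-like nuclei, and Spic, a factor of red pulp and bone marrow macrophages that is induced by heme in mouse, at 45.4 and 41.1 CPM in CKO and 34.1 and 31.0 CPM in WT. The 1 gene higher in hepatocyte-like nuclei was Tfr2, the hepatocyte iron sensor (log2 change 1.53). Hp and Hpx, secreted hepatocyte products that bind hemoglobin and heme, were called lower in hepatocyte-like nuclei, while their counts in macrophage-like nuclei were at 0.964 to 1.01 times the free RNA estimate. Of the 13 transport genes 3 were higher and 7 lower in hepatocyte-like nuclei, beside 30.2% and 32.4% of all genes tested. Flvcr2, a heme transporter gene, and the mitochondrial exporter gene Abcb10 were higher in hepatocyte-like nuclei (log2 changes 1.90 and 1.21), and Flvcr1, the plasma membrane heme exporter gene, was lower (log2 change -1.83).

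Over 20 class-by-library sums (hepatocyte, macrophage, cholangiocyte, endothelial and mesenchymal classes), the genes whose log2(CPM + 5) pattern was most like that of 4 members were listed from 7147 genes with a mean of at least 20 CPM. The points share libraries, depth and free RNA, so the correlations describe these sums only. For Alas1 they were Sds (r = 0.89), Gm20528 (0.88) and Gm40438 (0.88). Fech was most like Khsrp (r = 0.86), Atp13a3 (0.86) and Orc5 (0.86), Hmox1 most like Lpl (r = 0.97), Abcd2 (0.91) and Lilrb4a (0.89), and Blvrb most like Stk10 (r = 0.92), Tbc1d5 (0.90) and Eif4g3 (0.87).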

How the data were processed

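Nuclei from fresh-frozen livers, with paraformaldehyde added to the homogenate, were profiled with a droplet 3' kit, per the labels' protocols. The deposited matrices hold the authors' raw UMI counts per gene and barcode from Cell Ranger 5.0.1 on mm10, per the submitters' processing notes. Whether intronic reads or strand were used is not given in the sources used here, so levels are not compared between genes. Of 43664 barcodes, none had under 500 genes. Both first replicates hold exactly 16000 barcodes, and whether a limit was set on their number, which bears on the unnamed barcodes behind the free RNA estimate, is not given in the sources used here. Doublets were removed by Scrublet score at 0.8% per 1000 barcodes (both first replicates lost 2048, the second ones 215 in CKO and 336 in WT). Barcodes were clustered in scanpy 1.11.5 (2000 variable genes, 30 components, Leiden resolution 1, 23 clusters). Clusters were named where at least 3 markers were 1.5-fold over the profile of each library's 10% of barcodes with the fewest UMIs. That reference differs from the profile of the unnamed barcodes, which gave the free RNA estimate. The counts of a class were added up within each library and tested with edgeR 4.0.16 in R 4.3.3 (TMM scaling, quasi-likelihood test, Benjamini-Hochberg adjustment over all genes, threshold 0.05). DESeq2 1.42.0 was an alternative. Changes within replicate numbers use a prior count of 2. The test was checked on simulated counts: of genes changed 2-fold, it recovered 69%, 45% and 40% between genotypes in hepatocyte-, macrophage- and cholangiocyte-like nuclei. These percentages hold for those counts only, and the recovery at the spread between the real libraries was not tested. The genes named are the 9 members, of each list those called between genotypes or else the one with the smallest p per class, and for 4 members the 3 genes of most similar pattern. Hmox2, Nr1i2, Nr1i3, Foxo1, Cd163, Spic, Hp, Hpx, Flvcr1, Flvcr2 and Abcb10 were chosen after their values were seen. Members and lists were chosen with earlier results of these data known, and the interaction test and the other scale of free RNA after the data were seen. One gene of the list of other pathway enzymes and one erythroid marker are not reported here.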

Additional observations from a re-analysis of the deposited data

How the results depend on the processing

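Between genotypes the number of called genes changed with the method. In hepatocyte-like nuclei (0 called) it was 2 with DESeq2 and 0 to 264 when each library was left out, the 264 without the first CKO library. In macrophage-like nuclei (0 called) it was 3 with DESeq2, 127 with no filter, 148 with at least 1000 genes per barcode, 3 with the replicate block and 0 to 202 with a library left out (84 without the first CKO library, 202 without the second). In cholangiocyte-like nuclei (21 called) it was 0 with DESeq2, with doublets kept, at resolution 2 and with centred components, 119 with no filter, 1 with at least 1000 genes or free RNA subtracted, and 6 to 43 with a library left out (43 without the first CKO library, 11 and 6 without the first and second WT library). Over all kept barcodes (0 called) it was 1 with DESeq2 and 0 to 2 with a library left out. Between classes, subtraction of free RNA gave 4108 in place of 8339 (hepatocyte-like over macrophage-like), 3688 in place of 6625 (hepatocyte-like over cholangiocyte-like) and 2584 in place of 4898 (macrophage-like over cholangiocyte-like); no library block gave 4112 and 2922 in the last 2, and leaving out a library 4408 to 6932 and 2926 to 6111. The replicate numbers are not said to pair libraries: deviations of same-numbered libraries correlated at 0.27, 0.136, 0.087 and 0.49 in hepatocyte-, macrophage- and cholangiocyte-like nuclei and all barcodes, and with the replicate block the cholangiocyte-like count was 31.

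The following log2 changes took the other sign under an alternative, and the cause was not tested. For CKO over WT in macrophage-like nuclei, Urod (0.00) became 0.030 with DESeq2, 0.013 with no filter, 0.13 with the replicate block and 0.085 with doublets kept, and Blvrb became 0.021 with free RNA subtracted. In cholangiocyte-like nuclei, Urod became 0.0088 with RLE scaling, 0.015 with at least 1000 genes, 0.0016 with doublets kept, 0.044 at resolution 2 and 0.092 with centred components, and Alas1 became 8.54 with free RNA subtracted, where its counts are at the free RNA level. For hepatocyte-like over macrophage-like nuclei, free RNA subtraction gave Alad 3.03 and Urod 1.51. For hepatocyte-like over cholangiocyte-like nuclei, Ppox became -0.063 with DESeq2, -0.036 with no library block, -0.026 with at least 1000 genes, -0.048 with doublets kept and -0.38 with free RNA subtracted, Hmox1 became -0.34 with no library block, and Urod 1.34 with free RNA subtracted. For macrophage-like over cholangiocyte-like nuclei, Fech became 0.0097 with no filter, 0.0012 with doublets kept, 0.0010 at resolution 2 and 0.017 with centred components. With a library left out, genotype changes in hepatocyte-like nuclei ranged over -0.20 to 1.08 for Alad, -0.13 to 0.50 for Urod, -1.49 to 2.05 for Hmox1 and -0.997 to 0.10 for Blvra. In macrophage-like nuclei they ranged over -0.11 to 0.70 for Alad, -0.17 to 1.499 for Uros, -0.52 to 0.72 for Urod and -0.051 to 2.09 for Alas2. In cholangiocyte-like nuclei they ranged over -0.65 to 0.37 for Alad, -0.50 to 0.076 for Urod, -0.54 to 0.49 for Fech, -7.65 to 2.65 for Hmox1 and -2.75 to 1.61 for Nr1d1. Over all kept barcodes they ranged over -1.24 to 0.049 for Alas1, -0.21 to 0.99 for Alad, -0.089 to 0.60 for Uros, -0.053 to 0.68 for Urod, -0.14 to 0.41 for Ppox and -1.21 to 2.15 for Hmox1. Hepatocyte-like over cholangiocyte-like changes ranged over -0.24 to 0.20 for Ppox and -0.090 to 0.22 for Hmox1, and macrophage-like over cholangiocyte-like changes over -0.19 to 0.12 for Fech. Across 13 alternatives, the hepatocyte-like genotype change of Alas1 ranged over -0.83 to -0.21, of Cpox over 0.56 to 1.02 and of Ppargc1a over -1.28 to -1.09, with none called. Without the second CKO library, 3 members in place of 0 exceeded free RNA in every library in cholangiocyte-like nuclei, a count chosen after seeing the data.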
